A study of Rattus norvegicus with 15 samples.

Results

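The Cyp4 family of cytochrome P450 fatty acid hydroxylases was followed across 15 liver arrays from rats fed a high fat diet and given PF-04923503, an inhibitor of acetyl-CoA carboxylase (ACC), or its vehicle. Members were all probe sets whose only gene symbol in the platform annotation begins with Cyp4a, Cyp4b, Cyp4f or Cyp4v. This rule found 12 probe sets for 10 genes, of 31099 probe sets and 14217 genes with a single symbol on the array. They were Cyp4a1, Cyp4a3, Cyp4a8, Cyp4b1, Cyp4f1, Cyp4f4, Cyp4f5, Cyp4f6, Cyp4f17 and Cyp4v3. Cyp4a2 had no probe set of its own. A further probe set is annotated to both Cyp4a3 and Cyp4a2, so its values belong to the pair and not to either gene. The liver RNA of male Sprague Dawley rats, 7 weeks old when dosing began, was hybridised to Affymetrix rat arrays. Fat supplied 59% of the dietary energy in every group, and dosing was by oral gavage once a day over 6 weeks. The groups received 0.5% methylcellulose vehicle, 10 mg/kg PF-04923503 or 30 mg/kg PF-04923503, with 5 arrays each. No group on ordinary chow was analysed here, so all values describe fat-fed animals, and the labels do not state that each array is a different rat, so the p-values measure the spread between these arrays.

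Cyp4 enzymes sit in the endoplasmic reticulum and hydroxylate fatty acids at or next to the methyl end of the chain, the omega position. The product is oxidised by alcohol and aldehyde dehydrogenases to a dicarboxylic acid, which is shortened mainly in peroxisomes, so omega-oxidation is a side route to mitochondrial beta-oxidation that the liver uses when fatty acids are abundant. In rat liver the Cyp4a genes are known as targets of PPAR-alpha, a nuclear receptor for fatty acids and fibrate drugs, and Cyp4f enzymes are known for hydroxylating leukotrienes and arachidonic acid. ACC makes malonyl-CoA, which is the building block of new fatty acids and also holds back the entry of fatty acids into mitochondria.

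In the RefSeq annotation of the rat genome the Cyp4a genes lie side by side on chromosome 5, in the order Cyp4a8, Cyp4a2, Cyp4a3 and Cyp4a1 with pseudogenes and the Cyp4a2 copy Cyp4a2l1 between them, and Cyp4b1 is the next Cyp4 gene after Cyp4a1. The measured Cyp4f genes are together on chromosome 7 and Cyp4v3 is on chromosome 16. RefSeq promoter sequences (GRCr8) were found for 7 of the 11 Cyp4 genes looked up. None was found for Cyp4a1, Cyp4f4, Cyp4f17 or Cyp4v3. The 250 bases before the start of Cyp4a2, Cyp4a3 and Cyp4a8 are shown because a single probe set reads Cyp4a2 and Cyp4a3 together, whereas Cyp4a8 has probe sets of its own. All 3 genes are on the minus strand, the sequences run 5′ to 3′ along the gene, and capitals mark AGGTCA, the half-site bound by PPAR-alpha and many other nuclear receptors. Their positions are chr5:134170909-134171158 for Cyp4a2, chr5:134352237-134352486 for Cyp4a3 and chr5:133970227-133970476 for Cyp4a8.
Cyp4a2 promoter: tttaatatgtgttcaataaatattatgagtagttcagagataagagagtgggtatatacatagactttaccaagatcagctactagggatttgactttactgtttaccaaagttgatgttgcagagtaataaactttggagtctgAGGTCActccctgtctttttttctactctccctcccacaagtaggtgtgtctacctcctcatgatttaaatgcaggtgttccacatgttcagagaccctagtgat
Cyp4a3 promoter: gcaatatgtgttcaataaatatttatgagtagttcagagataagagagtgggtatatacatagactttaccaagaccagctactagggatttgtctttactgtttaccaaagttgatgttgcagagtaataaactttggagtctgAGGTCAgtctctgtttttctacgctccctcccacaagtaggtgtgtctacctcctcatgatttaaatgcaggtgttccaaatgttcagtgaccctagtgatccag
Cyp4a8 promoter: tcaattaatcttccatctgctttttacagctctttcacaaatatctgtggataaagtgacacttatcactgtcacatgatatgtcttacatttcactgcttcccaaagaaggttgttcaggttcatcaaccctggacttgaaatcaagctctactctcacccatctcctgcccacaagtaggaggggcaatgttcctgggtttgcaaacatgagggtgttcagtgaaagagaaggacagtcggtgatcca
Cyp4a2 and Cyp4a3 were identical at 284 of 295 aligned bases (96.3%) over their whole windows of 250 bases before and 50 bases after the start. Both carry 1 AGGTCA beginning 105 bases before the start, and the Cyp4a8 window carries none. The motif AGGTCA was searched on both strands and occurs in 16.2% of 33469 rat promoter windows of the same length, so its presence in a window is common. The full direct repeat AGGTCANAGGTCA occurs in 18 windows (0.0538%) and the looser AGGNCANAGGNCA in 139 (0.415%), which include the windows of the full repeat. Neither was found in a Cyp4 window, which says only that these letters are not there.

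The deposited values are log2 signals, and a difference of 1 is a doubling. Array medians lay between 6.08 and 6.12 and array pairs correlated at r between 0.989 and 0.996, so no array stood apart as a whole. A probe set was kept when the fifth highest of its 15 values exceeded 6.10, the median of all values, and the brightest remaining probe set stood for its gene. This left 9540 genes, among them 9 of the 10 Cyp4 genes. All 9 hepatocyte markers on the array, albumin among them, were above 6.10 on every array, and the mean of the marker list stayed between 14.10 and 14.24. Of the markers of other organs, 6 of 8 for pancreas and 5 of 6 for kidney were above 6.10 on no array. The platform gives no level that can be compared from gene to gene, so each Cyp4 gene is compared with itself between groups.

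No Cyp4 gene passed the test at either dose. Differences were tested with limma, with p-values adjusted by the Benjamini-Hochberg method over all 9540 genes and a threshold of 0.05. At 10 mg/kg against vehicle 0 of 9 Cyp4 genes passed, where 0.105% of all genes did. At 30 mg/kg against vehicle and at 30 mg/kg against 10 mg/kg 0 of 9 passed, where 0% of all genes did. For the mean of both doses against vehicle 0 of 9 passed, where 0.147% of all genes did. At an unadjusted limma p under 0.05 the counts of Cyp4 genes were 1 at 10 mg/kg, 2 at 30 mg/kg, 1 between doses and 1 for both doses together. The same threshold took in 13.3%, 16.1%, 5.82% and 17.7% of all genes in either direction, and the counts are near those shares. The 1 gene at 10 mg/kg and both genes at 30 mg/kg were higher, where 4.49% and 5.27% of all genes were. Whether counts among 9 genes exceed these shares was not tested. The comparisons with vehicle share the same 5 vehicle arrays and are not independent of each other.

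Cyp4a1 stood highest at 10 mg/kg. It is the rat lauric acid omega-hydroxylase and the Cyp4a enzyme best known for its induction by fibrates. Its log2 values were 11.45, 11.88, 11.91, 11.79 and 12.01 in the vehicle samples. They were 12.65, 12.88, 12.18, 12.44 and 12.49 in the 10 mg/kg samples and 12.42, 12.14, 12.61, 11.77 and 11.90 in the 30 mg/kg samples. All 5 values at 10 mg/kg lay above all 5 vehicle values, whereas at 30 mg/kg 3 lay above every vehicle value and 2 lay among them. Of all 9540 genes, 0.975% had 10 mg/kg arrays wholly above the vehicle arrays. The group means were 11.81 ± 0.22, 12.53 ± 0.26 and 12.17 ± 0.35 (SD, n = 5 each).

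The Cyp4a1 difference at 10 mg/kg was 0.72 on the log2 scale, with a 95% confidence interval from 0.37 to 1.06, or 1.65-fold. By limma it ranked 44th of all genes with an adjusted p of 0.108, so it did not pass over all genes. Taken alone, the exact two-sided permutation test over the 10 arrays gave p = 0.00794, the smallest that 5 against 5 allow, among 12 such tests of 3 Cyp4a genes. At 30 mg/kg the difference from vehicle was 0.36 (0.01 to 0.71), or 1.28-fold, with a limma adjusted p of 0.294 and an exact permutation p of 0.103. The 30 mg/kg mean was 0.36 below the 10 mg/kg mean, a difference of -0.36 (-0.70 to -0.01) with a limma adjusted p of 0.851 and an exact permutation p of 0.0952. The order of the means was therefore vehicle, 30 mg/kg and 10 mg/kg, and neither step between neighbours passed the test. For both doses together the difference was 0.54, or 1.45-fold, with 8 of 10 treated arrays above every vehicle array and a limma adjusted p of 0.105.

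Markers of Kupffer, endothelial and stellate cells mostly had lower means than with vehicle at both doses, whereas Cyp4a1 had a higher one at both. Of 10 tested Kupffer cell and macrophage markers 9 had lower means at 10 mg/kg, 5 of them at an unadjusted limma p under 0.05, where 8.79% of all genes were lower at that threshold. The mean of that list ran from 8.81 to 9.46 over the vehicle arrays, from 8.55 to 9.16 at 10 mg/kg and from 8.53 to 9.38 at 30 mg/kg. All 10 tested endothelial markers and all 11 tested stellate cell markers also had lower means at 10 mg/kg, where 58.2% of all genes did. At 30 mg/kg 9 of 10 Kupffer cell and macrophage markers, all 10 endothelial markers and 8 of 11 stellate cell markers had lower means. Over all genes 62% did at that dose. None of these markers passed after adjustment, and their part in the Cyp4 values was not tested. In whole liver RNA fewer cells of a type and less RNA per cell cannot be told apart.

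Cyp4a3, an omega-hydroxylase that also acts on arachidonic acid, had its highest mean at 30 mg/kg. The log2 values were 12.81, 12.80, 13.04, 13.09 and 12.54 with vehicle. At 10 mg/kg they were 12.72, 13.41, 13.04, 13.15 and 12.88, and at 30 mg/kg 13.23, 13.04, 13.32, 12.88 and 13.31. The groups overlapped at both doses, and 3 of 5 values at 30 mg/kg lay above every vehicle value. The difference was 0.18 at 10 mg/kg (-0.10 to 0.47, limma adjusted p = 0.577) and 0.30 at 30 mg/kg (0.02 to 0.58, 1.23-fold, limma adjusted p = 0.281). The exact permutation p at 30 mg/kg was 0.0476, unadjusted. The 2 doses differed by 0.12 (-0.17 to 0.40), so the means ran upwards with dose without any step passing the test.

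The probe set shared by Cyp4a3 and Cyp4a2 gave values of 13.86, 13.52, 13.75, 13.72 and 13.14 with vehicle. It gave 12.92, 13.83, 13.75, 13.86 and 13.62 at 10 mg/kg and 13.89, 13.71, 13.80, 13.75 and 13.94 at 30 mg/kg. A low array at 10 mg/kg, sample 1, set that group's spread, and the same array held the lowest 10 mg/kg value of the Cyp4a3 probe set. With every filtered probe set in the fit, the difference was -0.00 at 10 mg/kg (-0.35 to 0.35, limma adjusted p = 0.998). At 30 mg/kg it was 0.22 (-0.13 to 0.57, limma adjusted p = 0.531).

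Cyp4a8, an enzyme of the same group described mainly in rat kidney, was dim in these livers and crossed the filter on 11 of 15 arrays. Its brightest probe set read 6.38, 4.79, 6.23, 6.25 and 5.80 with vehicle. It read 6.65, 4.94, 6.16, 7.19 and 6.36 at 10 mg/kg and 6.53, 6.21, 6.64, 7.17 and 5.67 at 30 mg/kg. The spread inside each group was wider than the distance between groups, and sample 2 was lowest in both the vehicle and the 10 mg/kg group. The difference was 0.37 at 10 mg/kg (-0.47 to 1.21, limma adjusted p = 0.716) and 0.55 at 30 mg/kg (-0.28 to 1.39, limma adjusted p = 0.507). Without vehicle sample 2 the 10 mg/kg difference was 0.10 and the 30 mg/kg difference 0.28, and without 10 mg/kg sample 2 the former was 0.70. The second Cyp4a8 probe set gave smaller differences of 0.11 and 0.34 in the same direction, with limma adjusted p-values of 0.805 and 0.280.

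**Figure D1:**
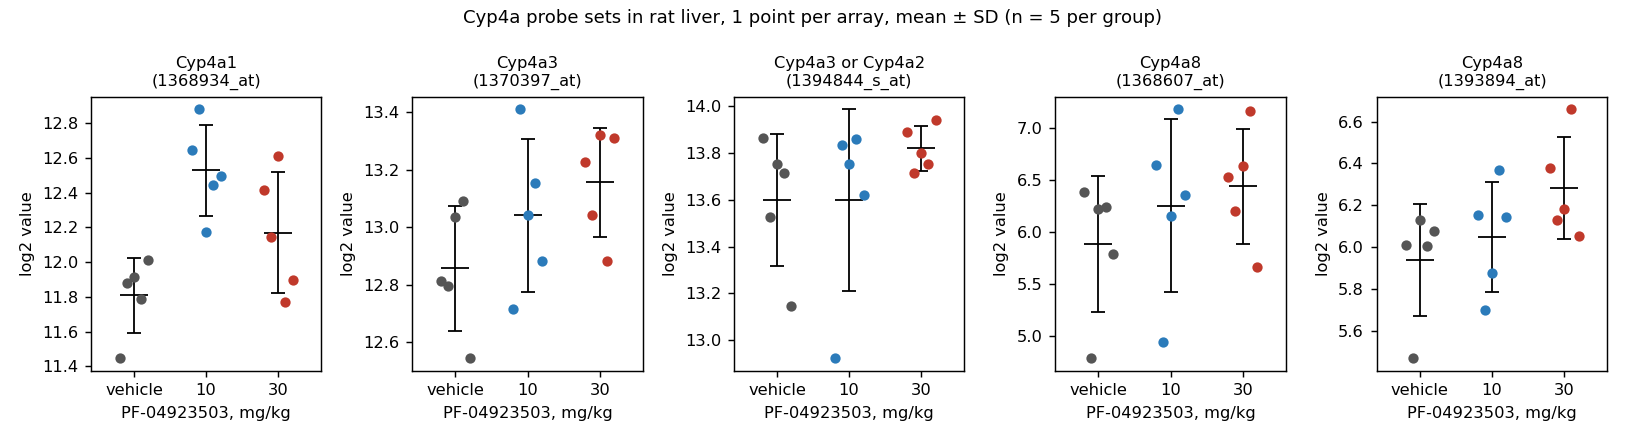
Log2 values of the 5 Cyp4a probe sets (vertical axes) in the vehicle, 10 mg/kg and 30 mg/kg groups (horizontal axes), 1 point per array with the group mean and SD. The 5 Cyp4a1 values at 10 mg/kg sit above all vehicle values, and the groups overlap in the other panels.

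Among the Cyp4f genes the means differed little. Cyp4f1, a hydroxylase of arachidonic acid and leukotrienes in rat liver, read 13.02, 13.31, 13.21, 13.41 and 13.03 with vehicle, 13.08, 12.96, 13.09, 13.09 and 13.02 at 10 mg/kg, and 13.17, 13.10, 12.95, 13.08 and 13.21 at 30 mg/kg. Its differences from vehicle were -0.15 (-0.31 to 0.01, limma adjusted p = 0.410) and -0.10 (-0.25 to 0.06, limma adjusted p = 0.545), with all groups overlapping. Cyp4f4 and Cyp4f6, which hydroxylate leukotrienes, also kept to narrow ranges. Cyp4f4 lay between 10.86 and 11.38 on all arrays, with differences of -0.01 (-0.21 to 0.19) at 10 mg/kg and -0.12 (-0.31 to 0.08) at 30 mg/kg. Cyp4f6 lay between 10.05 and 10.63, with differences of -0.05 (-0.30 to 0.19) and -0.07 (-0.32 to 0.17). For these 3 genes the 95% confidence intervals of the ratio to vehicle ran from 0.803 to 1.14 at most over both doses.

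Cyp4f17 was near the filter, with values from 6.00 to 6.70. Its differences were 0.23 at 10 mg/kg (-0.04 to 0.50, limma adjusted p = 0.457) and 0.16 at 30 mg/kg (-0.11 to 0.44, limma adjusted p = 0.541). Cyp4f5 lay between 4.23 and 4.61, below 6.10 on every array, and was the one member not tested. Cyp4b1, better known as a lung enzyme that activates furans, read 7.16, 7.83, 7.57, 7.53 and 8.10 with vehicle. It read 7.89, 7.84, 7.84, 7.45 and 7.94 at 10 mg/kg and 8.01, 7.91, 7.87, 7.83 and 7.99 at 30 mg/kg, all within the range of the vehicle values. The vehicle arrays were the most scattered and the 30 mg/kg arrays the least, with SDs of 0.35 and 0.07. The Cyp4b1 difference was 0.16 at 10 mg/kg (-0.14 to 0.45, limma adjusted p = 0.654) and 0.29 at 30 mg/kg (-0.01 to 0.58, limma adjusted p = 0.319).

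**Figure D2:**
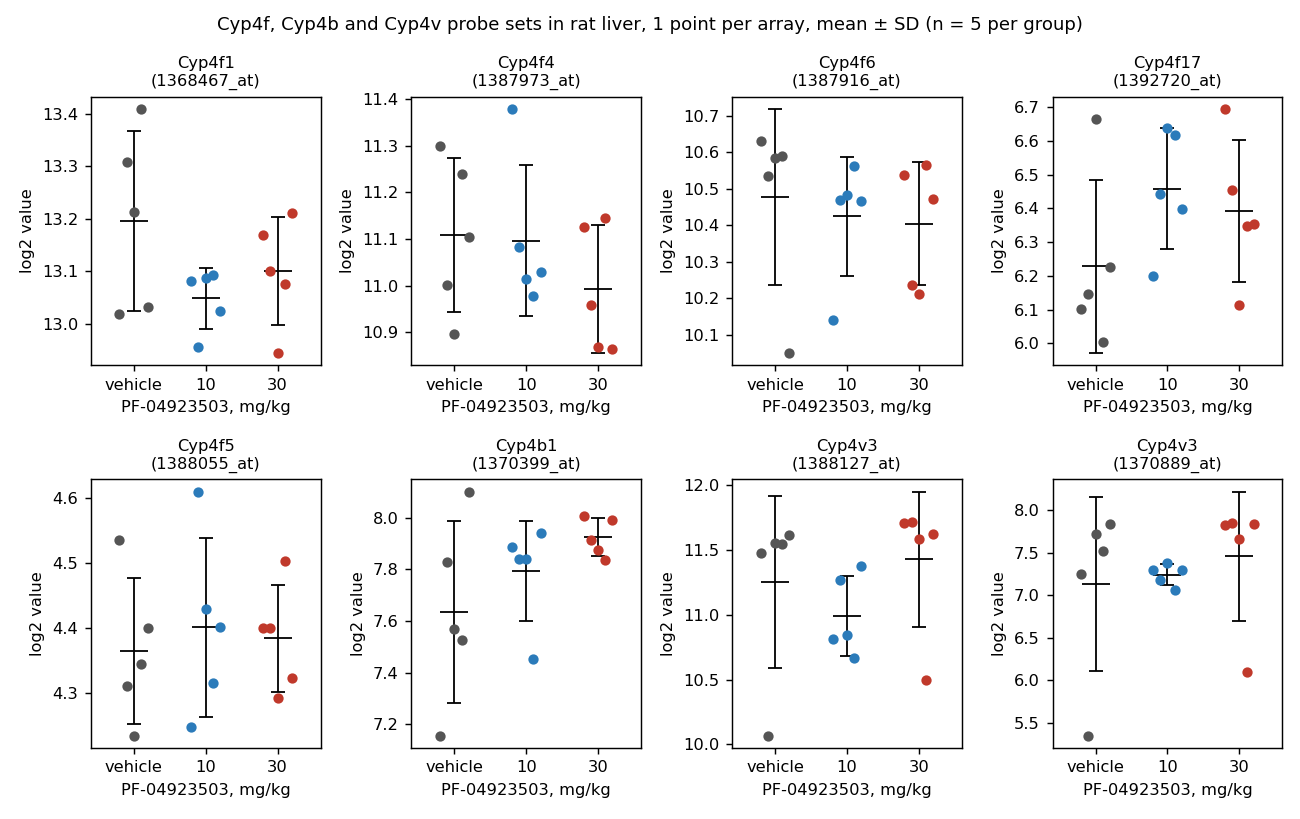
Log2 values of the Cyp4f, Cyp4b1 and Cyp4v3 probe sets (vertical axes) by group (horizontal axes, mg/kg), 1 point per array with mean and SD. The groups overlap in every panel, and 1 vehicle and 1 30 mg/kg array lie far below the rest in both Cyp4v3 panels.

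Cyp4v3, the rodent counterpart of the human fatty acid hydroxylase mutated in Bietti crystalline dystrophy, had 1 array far below the others in the vehicle group and 1 in the 30 mg/kg group. Its brighter probe set read 11.48, 10.07, 11.55, 11.54 and 11.61 with vehicle, 10.81, 11.27, 10.85, 10.67 and 11.38 at 10 mg/kg, and 11.71, 11.72, 11.58, 10.50 and 11.63 at 30 mg/kg. Vehicle sample 2 and 30 mg/kg sample 4 fell out of their groups, and the remaining vehicle and 30 mg/kg values lay together above the 10 mg/kg values on this probe set. The dimmer probe set read 7.25, 5.35, 7.72, 7.52 and 7.84 with vehicle, 7.30, 7.18, 7.38, 7.06 and 7.30 at 10 mg/kg, and 7.83, 7.85, 7.67, 6.10 and 7.84 at 30 mg/kg, with the same 2 arrays lowest. The difference of the brighter probe set was -0.26 at 10 mg/kg (-0.89 to 0.37, limma adjusted p = 0.743). It was 0.18 at 30 mg/kg (-0.45 to 0.81, limma adjusted p = 0.808) and 0.43 between the doses (-0.20 to 1.06, limma adjusted p = 0.884). The dimmer probe set differed by 0.11 and 0.32 from vehicle, so the 2 probe sets disagreed in sign at 10 mg/kg.

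The 2 arrays decided these Cyp4v3 values. Without vehicle sample 2 the 10 mg/kg difference was -0.55 and the 30 mg/kg difference turned to -0.12, and without 30 mg/kg sample 4 the 30 mg/kg difference was 0.41 and the difference between doses 0.67. With both arrays left out, a choice made after seeing the data, the Cyp4v3 difference was -0.55 at 10 mg/kg (limma adjusted p = 0.178), 0.11 at 30 mg/kg (limma adjusted p = 0.769) and 0.67 between the doses (limma adjusted p = 1.0). The unadjusted limma p-values at 10 mg/kg and between the doses were then 0.00065 and 0.00013, against 0.400 and 0.163 over all 15 arrays. Because the 2 arrays were chosen by their low Cyp4v3 values, leaving them out narrows the spread of those same values. The p-values of this fit therefore cannot count as a test of Cyp4v3. The hepatocyte marker means of the 2 arrays were 14.15, inside the vehicle range, and 14.20, the highest of the 30 mg/kg group. Vehicle sample 2 had the highest mean of all 15 arrays for Kupffer cell and macrophage markers (9.46) and for endothelial markers (8.80), and the highest of the vehicle group for stellate cell markers (7.86). The 30 mg/kg sample 4 had the highest stellate cell marker mean of all arrays (7.95), and its Kupffer cell and endothelial marker means lay inside the range of its group. The signal of the 3′ probe set of Gapdh minus that of its 5′ probe set, which grows when RNA is degraded, was 0.40 and 0.32 against 0.30 to 0.50 over all arrays. For beta-actin it was 1.72 and 1.62 against 1.62 to 1.91, the second being the lowest of all arrays. For hexokinase it was 1.78 and 1.73 against 1.51 to 1.99. Blood marker means were 9.38 and 9.65 on these arrays, and the first is the lowest of the vehicle group. The part of these markers in the Cyp4v3 values was not tested.

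**Figure D3:**
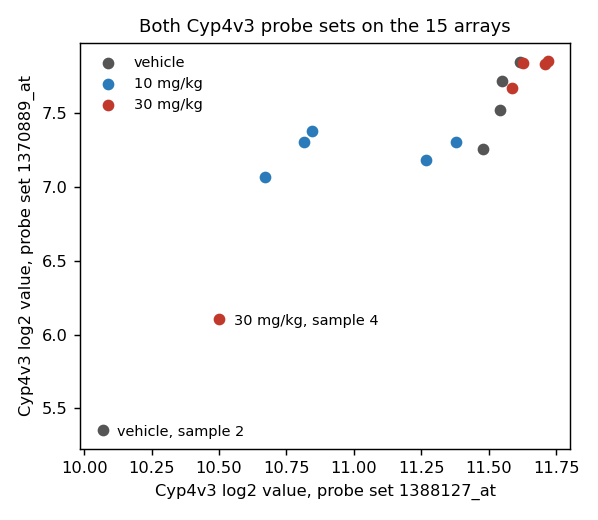
Log2 values of the brighter (horizontal axis) and dimmer (vertical axis) Cyp4v3 probe sets on the 15 arrays, coloured by group. Vehicle sample 2 (10.07 and 5.35) and 30 mg/kg sample 4 (10.50 and 6.10) are low on both.

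Set side by side, 5 of the 9 tested Cyp4 genes had means above vehicle at 10 mg/kg and 6 at 30 mg/kg, where 41.8% and 38% of all tested genes did. The median difference of the Cyp4 genes was 0.16 and 0.18, beside -0.02 and -0.03 over all genes. The genes above vehicle at both doses were Cyp4a1, Cyp4a3, Cyp4a8, Cyp4b1 and Cyp4f17, and Cyp4f1, Cyp4f4 and Cyp4f6 were below at both. Cyp4f4 at 10 mg/kg turned to 0.01 above vehicle when quantile normalisation was added.

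**Figure D4:**
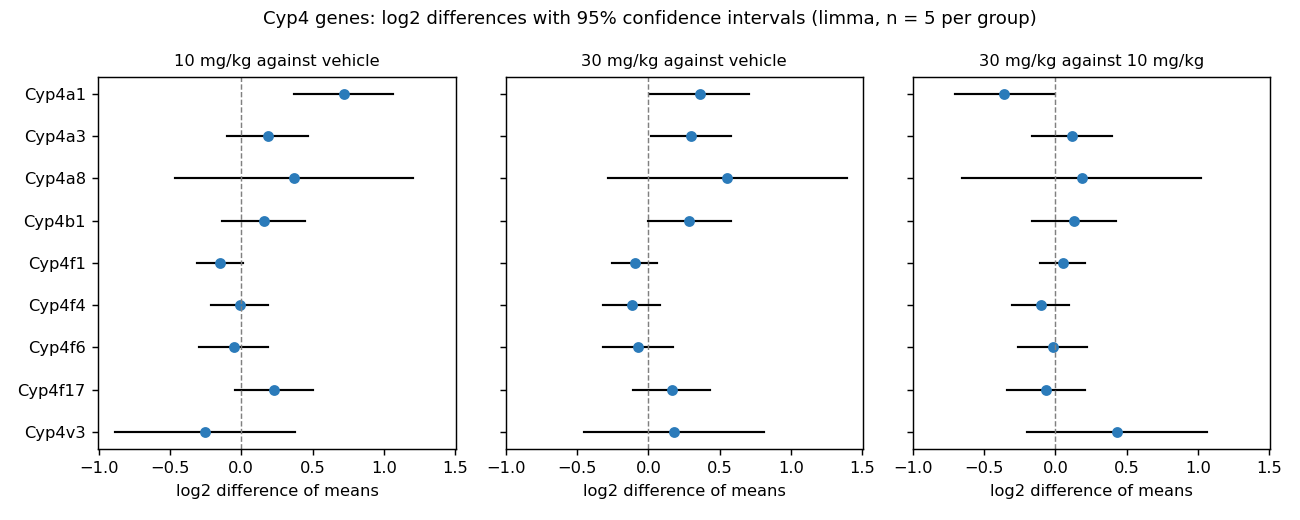
Log2 differences of group means with 95% confidence intervals (horizontal axes) for the 9 tested Cyp4 genes (rows) in 3 comparisons. Cyp4a1 at 10 mg/kg against vehicle has the interval farthest from 0, from 0.37 to 1.06, and no gene passed after adjustment over 9540 genes.

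The Cyp4a genes followed each other loosely at most. Over the 15 arrays Cyp4a1 and Cyp4a3 correlated at r = 0.393 (permutation p = 0.147, adjusted over 6 pairs 0.221) and rho = 0.331 (permutation p = 0.230), and at r = 0.128 without the 2 arrays farthest from the Cyp4a1 median. Cyp4a8 correlated with Cyp4a1 at r = -0.0016 (permutation p = 1.0, adjusted 1.0) and rho = 0.125 (permutation p = 0.659). It correlated with Cyp4a3 at r = -0.058 (permutation p = 0.840, adjusted 1.0) and rho = -0.0054 (permutation p = 0.986). Without the 2 farthest arrays these were r = 0.423 and r = 0.108.

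Probe sets that read the same genes tracked each other closely. The pair of Cyp4v3 probe sets correlated at r = 0.895 (permutation p = 2e-05, the smallest that 100000 permutations can give, adjusted 6e-05) and rho = 0.936, with r = 0.782 when vehicle sample 2 and 30 mg/kg sample 4 were left out. The Cyp4a8 pair gave r = 0.890 (permutation p = 2e-05, adjusted 6e-05) and rho = 0.838 (permutation p = 0.0002), with r = 0.753 without its 2 farthest arrays. The Cyp4a3 probe set and the one shared with Cyp4a2 gave r = 0.744 (permutation p = 0.00064, adjusted 0.00128) and rho = 0.715, with r = 0.668 without 2 arrays.

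The genes outside the family whose values were most like Cyp4a1 over the 15 arrays were Hsdl2, Tor3a, Abhd1, Nudt7 and Acot2. Likeness was Pearson r over all 9540 genes, given as a description of 15 arrays that share their groups. Hsdl2, a peroxisomal dehydrogenase-like protein, had r = 0.91, and r = 0.86 once group means were taken out. Its group means were 10.12 ± 0.15, 10.57 ± 0.20 and 10.24 ± 0.25 (SD, n = 5) for vehicle, 10 and 30 mg/kg. Nudt7, a peroxisomal coenzyme A diphosphatase, had r = 0.86 (0.80 within groups) and means of 9.83 ± 0.13, 10.18 ± 0.21 and 9.87 ± 0.21. Acot2, a mitochondrial acyl-CoA thioesterase, had r = 0.85 (0.78 within groups) and means of 9.74 ± 0.26, 10.36 ± 0.28 and 9.94 ± 0.57. Tor3a had r = 0.87 (0.78 within groups) and means of 7.26 ± 0.51, 8.50 ± 0.22 and 7.54 ± 0.86, and Abhd1 had r = 0.86 (0.63 within groups) and means of 9.29 ± 0.18, 9.94 ± 0.21 and 9.60 ± 0.19. Abhd1 passed the test at 10 mg/kg (limma adjusted p = 0.0439), and its r fell the most of the 5 when group means were taken out. The genes were picked over all arrays, group differences included, so the order of their group means follows from the choice.

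**Figure D5:**
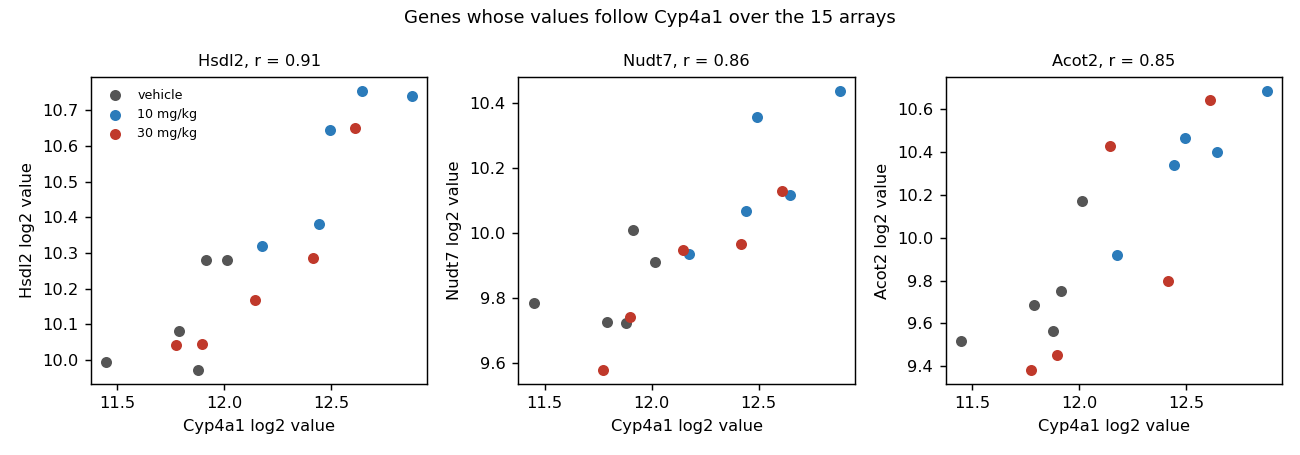
Log2 values of Hsdl2, Nudt7 and Acot2 (vertical axes) against Cyp4a1 (horizontal axes), 1 point per array coloured by group, with r over 15 arrays of 0.91, 0.86 and 0.85. The array with the highest Cyp4a1 value, 12.88 at 10 mg/kg, also has the highest Nudt7 and Acot2 values.

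The genes most like the other Cyp4a members were different ones. For Cyp4a3 they were Elob (r = 0.79), Dcbld2 (0.79), Clint1 (0.74), Xpo5 (0.74) and Hrct1 (0.73). For the brighter Cyp4a8 probe set they were LOC102548586 (r = 0.89), Mtmr1 (0.79), Dlg3 (0.76), Tmed7 (0.76) and Mcfd2 (0.75).

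Enzymes that work with Cyp4 were compared next, beginning with the electron donors that every microsomal P450 needs. All 5 were tested and none had an unadjusted limma p under 0.05 at either dose. Por, the P450 reductase, differed from vehicle by 0.17 and -0.12, and the cytochrome b5 genes Cyb5a by -0.09 and -0.04 and Cyb5b by 0.13 and 0.15. The alcohol and aldehyde dehydrogenases that take on the hydroxylated fatty acids were mostly lower in mean than with vehicle, 7 of 9 tested at 10 mg/kg and 8 of 9 at 30 mg/kg, where 58.2% and 62% of all genes were. None passed, and 2 at each dose had an unadjusted limma p under 0.05, all of them lower. Over all genes 13.3% and 16.1% were under it in either direction, and 8.79% were lower at 10 mg/kg. Whether counts among 9 genes exceed these shares was not tested. Aldh1a1, a retinal and aldehyde dehydrogenase, differed by -0.32 and -0.53 (limma adjusted p = 0.369 and 0.156). Adh4 differed by -0.24 and -0.62 (limma adjusted p = 0.684 and 0.218). The number of these genes above vehicle ranged from 1 to 4 at either dose when single arrays were left out.

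The peroxisomal genes that shorten dicarboxylic acids mostly had their highest means at 10 mg/kg, as Cyp4a1 did. At 10 mg/kg 10 of 12 tested had means above vehicle, where 41.8% of all genes did. The median difference was 0.19, and the count was 10 whichever single array was left out. At 30 mg/kg 3 of 12 had means above vehicle, where 38% of all genes did. The median was -0.04, and the count was 6 without 30 mg/kg sample 4. All 12 were lower at 30 mg/kg than at 10 mg/kg, with a median of -0.17, where 54.4% of all genes were, and without 10 mg/kg sample 5 this was 10 of 12. None of the 12 passed in any comparison. The list was chosen with earlier results of these data known. Its counts beside the shares of all genes are therefore a description and no test. Ehhadh, the bifunctional enzyme of this route and a classical PPAR-alpha target, had differences of 0.22 at 10 mg/kg and -0.03 at 30 mg/kg (limma adjusted p = 0.499 and 0.922). Abcd3, the peroxisomal transporter of long and branched acyl groups, had 0.26 and 0.13 (limma adjusted p = 0.337 and 0.571). Its 10 mg/kg arrays were all above the vehicle arrays, as for 0.975% of all genes. In the other direction, 1 of the 12 genes had its 30 mg/kg arrays all below the vehicle arrays. The share of all genes for that is not given here. Pex11a, which promotes division of peroxisomes, had 0.32 and -0.25, and Acot4, a peroxisomal thioesterase for dicarboxylic acids, 0.45 and -0.11. Decr2, a peroxisomal reductase of unsaturated acyl groups, was below vehicle at both doses, by -0.14 and -0.23.

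Of 31 tested PPAR-alpha targets outside these lists, 27 had means above vehicle at 10 mg/kg and 17 at 30 mg/kg. Over all genes the shares were 41.8% and 38%. Without single arrays the counts ran from 26 to 28 and from 16 to 22. This list too was chosen with earlier results of these data known, so the counts are a description and no test. The median differences were 0.09 and 0.03. Only Fads1 passed the test among the 31. At an unadjusted limma p under 0.05, 10 were higher and 1 lower at 10 mg/kg and 5 higher and 1 lower at 30 mg/kg, where 4.49% and 5.27% of all genes were higher. Fads1, the delta-5 fatty acid desaturase, rose by 0.42 at 10 mg/kg (0.29 to 0.55, limma adjusted p = 0.0427) and for both doses together by 0.36 (limma adjusted p = 0.0205). At 30 mg/kg it differed by 0.30 (limma adjusted p = 0.0979). The 10 mg/kg call was lost in 8 of 15 refits without 1 array, those without vehicle samples 1, 2 or 4, 10 mg/kg samples 2, 3, 4 or 5, or 30 mg/kg sample 1, where 0 of the 31 passed. The call for both doses together was lost in 4 of 15, those without vehicle samples 1, 2 or 4 or 10 mg/kg sample 3, and no gene at all was called for both doses when vehicle sample 2 and 30 mg/kg sample 4 were both left out. Fads2, the delta-6 desaturase, differed by 0.78 and 0.48 (limma adjusted p = 0.0740 and 0.193), Me1, malic enzyme, by 1.39 and 1.12 (limma adjusted p = 0.119 and 0.163), and Slc22a5, the carnitine transporter, by 0.59 and 0.20 (limma adjusted p = 0.119 and 0.492). Fads1, Fads2 and Me1 are also known as targets of the lipogenic factor SREBP. Between the doses 28 of the 31 were lower at 30 mg/kg, where 54.4% of all genes were, and none passed. The count was 25 to 28 when single arrays were left out.

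Other members of this target list differed by varying amounts, and none of those named next passed. Fgf21, a liver hormone of fasting, differed by 0.91 and 0.18, Cd36, a fatty acid transporter, by 0.70 and 0.39, and Acot2 by 0.63 and 0.20. Cpt1a, which carries fatty acids into mitochondria, differed by 0.20 and -0.04, Acadm by -0.02 and -0.04, Angptl4 by 0.09 and -0.03, and Pdk4, which restrains glucose oxidation, by 0.62 and 0.59. PPAR-alpha itself (Ppara) was dim and differed by -0.17 and -0.21 (limma adjusted p = 0.450 and 0.283). Its coactivator Ppargc1a differed by 0.48 and 0.35. Of 15 tested genes of PPAR-alpha and its partners, 5 were above vehicle at 10 mg/kg and 6 at 30 mg/kg. Over all genes the shares were 41.8% and 38%, and none of the 15 passed. The targets of the drug, Acaca and Acacb, encode the ACC enzymes and differed by 0.99 and 1.01 at 10 mg/kg and by 0.93 each at 30 mg/kg (limma adjusted p between 0.0943 and 0.135). These values do not check drug action, since the compound inhibits the protein.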

How the data were processed

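Total RNA of 15 rat liver samples in 3 groups was measured on Affymetrix arrays. The authors deposited log2 values per probe set, recognised as log2 from their range of 2.91 to 15.4. RMA, GCRMA (version 2.12.1) and limma (version 2.14.7) were among the authors' tools, per the submitters' processing notes, which give no roles. Background correction of this kind changes dim signals most, so differences of dim probe sets are less certain. No scanner files were used here, so detection calls, array dates and batches are unknown, and precision is limited by 5 arrays a group. Of 31099 probe sets, 57 were controls, 20826 had 1 symbol, 436 several and 9780 none; genes were named only from single symbols, except for the shared Cyp4a3 and Cyp4a2 probe set.

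The members and gene lists were chosen with earlier results of these data known. Groups came from the sample titles. No 2 arrays held identical values. limma 3.58.1 (R 4.3.3) fitted group means over all 15 arrays, with Benjamini-Hochberg adjustment; exact permutation tests used the arrays of single Cyp4a genes. All Cyp4 members were accounted for, with up to 4 genes named from each pathway list by smallest p for both doses against vehicle; Ehhadh, Pex11a, Acot4, Por, Cpt1a, Acadm, Angptl4, Pdk4, Fgf21, Cd36 and Acot2 were added after their values were seen. The fit was tested on simulated data. Alternatives covered the filter, probe set choice, normalisation, the fit's options and samples, a replicate block and single arrays left out.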

Additional observations from a re-analysis of the deposited data

Results flagged for a closer look

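Of 39 groups of 5 arrays over 13 probe sets, 10 held 1 array far from the other 4 by Dixon's criterion, which chance meets in about 1 group of 20. Both Cyp4v3 probe sets had the same pair of low arrays. On the brighter one vehicle sample 2 read 10.07 against 11.48 to 11.61 in the other vehicle samples, and 30 mg/kg sample 4 read 10.50 against 11.58 to 11.72. On the dimmer one these arrays read 5.35 against 7.25 to 7.84 and 6.10 against 7.67 to 7.85. Vehicle sample 2 was also low on the dimmer Cyp4a8 probe set, at 5.47 against 6.01 to 6.13. In the 10 mg/kg group, sample 1 read 12.92 on the shared Cyp4a3 and Cyp4a2 probe set against 13.62 to 13.86, 10.14 for Cyp4f6 against 10.47 to 10.56, and 11.38 for Cyp4f4 against 10.98 to 11.08, the only high value among the 10. Sample 4 of that group read 7.45 for Cyp4b1 against 7.84 to 7.94. Vehicle sample 5 read 10.05 for Cyp4f6 against 10.53 to 10.63. No cause of these values was tested.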

How the results depend on the processing

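The count of Cyp4 genes past the test was 0 in all 95 recomputed fits of the 4 comparisons. The lowest limma adjusted p of any Cyp4 gene ranged from 0.0696 to 0.224 at 10 mg/kg, from 0.125 to 0.443 at 30 mg/kg, from 0.680 to 1.0 between doses and from 0.0763 to 0.215 for both doses. The Cyp4a1 difference at 10 mg/kg lay between 0.63 and 0.81 when single arrays were left out. With group means taken out, same-numbered samples correlated over genes above 0.1 in 3 of 15 pairs (range -0.07 to 0.19). Pairs with different numbers were not compared, so whether the number marks a shared batch or pairing was not tested. With the sample number as a replicate block 0 Cyp4 genes passed. The lowest limma adjusted p-values were then 0.171, 0.299, 0.839 and 0.160 for 10 mg/kg, 30 mg/kg, between doses and both doses. Of 903 recomputed values for single Cyp4 genes 881 kept their direction and side of the threshold. Many of them could not change direction. Leaving out an array outside the comparison, or changing only the test, keeps the same mean difference. For the exact permutation tests the threshold was on the unadjusted p. Another 20 changed sign. Among these, without 1 array, were Cyp4v3 at 30 mg/kg, from 0.18 to -0.12, and Cyp4a8 between doses, from 0.18 to -0.15. The cause of the sign changes was not tested. Cyp4v3 for both doses was -0.04 as fitted, 0.087 when probe sets of a gene were averaged and -0.34 to 0.076 when single arrays were left out. Cyp4f4 at 10 mg/kg was 0.0061 after quantile normalisation and -0.082 to 0.036 when single arrays were left out. With single arrays left out, Cyp4v3 at 30 mg/kg ranged from -0.12 to 0.41, Cyp4f6 at 10 mg/kg from -0.16 to 0.018, and between doses Cyp4a8 ranged from -0.15 to 0.42, Cyp4f6 from -0.091 to 0.028 and Cyp4f17 from -0.14 to 0.0040. For Cyp4a1 at 30 mg/kg and between doses, the unadjusted limma p was under 0.05 and the exact permutation p was 0.103 and 0.0952. Leaving out vehicle sample 2 and 30 mg/kg sample 4 together, chosen after seeing the data, gave 0 Cyp4 genes with lowest limma adjusted p-values of 0.178, 0.361, 1.0 and 0.150. Over all genes the 10 called at 10 mg/kg became 3 without the filter, 0 with the replicate block and 0 to 26 without single arrays, and the 14 called for both doses became 3 with the block and 0 to 85 without single arrays, the highest without vehicle sample 5. Dim genes, Cyp4a8, Cyp4f17 and Cyp4f5, are the least well measured.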

Other observations

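Enzymes that handle eicosanoids, the other substrates of Cyp4f and Cyp4a enzymes, showed no common direction. Of 14 tested, 7 had means above vehicle at 10 mg/kg and 5 at 30 mg/kg, and none passed the limma test. Alox15, a lipoxygenase of arachidonic acid, differed by -1.09 at both doses (limma adjusted p = 0.384 and 0.317) with SDs of 1.53 in the vehicle group and 0.28 and 0.26 at 10 and 30 mg/kg (n = 5 each). The groups overlapped, and the vehicle arrays were far more scattered than the treated ones. Pla2g4a, the phospholipase that frees arachidonic acid, differed by -0.45 and -0.25. Among 9 periportal hepatocyte markers 8 had means above vehicle at 10 mg/kg and 7 at 30 mg/kg. Among 6 tested pericentral markers, which include genes of the zone where Cyp4a is known to be abundant, 2 and 1 did. Over all genes 41.8% and 38% did. At an unadjusted limma p under 0.05, 2 periportal markers were higher at each dose, where 4.49% and 5.27% of all genes were. At that threshold 3 pericentral markers were lower at 10 mg/kg, where 8.79% of all genes were. At 30 mg/kg 2 were lower, where 16.1% of all genes were under the threshold in either direction. None of these markers passed. Of 17 growth hormone and sex-dependent liver genes, a group that shares hormonal control with some Cyp4a genes in rat, 6 were above vehicle at 10 mg/kg and 10 at 30 mg/kg, and none passed.

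The genes whose values were most like the brighter Cyp4v3 probe set over the 15 arrays, chosen after its low arrays had been seen, were H1f2 (r = 0.86), Tmem248 (0.78), Tsfm (0.78), Stx6 (0.75) and Tmed4 (0.73). They too are the highest of all tested genes and were not tested.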
